A study of Mus musculus with 6 samples.

Results

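The genes that give a neuron its fast transmitter were followed in ventral midbrain, in 9 genes of the 22180 that had a probe set of their own. They are Gad1, Gad2 and Slc32a1 for GABA, Slc17a6, Slc17a7 and Slc17a8 for glutamate, Slc6a5 for glycine, and Chat and Slc18a3 for acetylcholine. They were chosen by their symbols, and the brightest of a gene's probe sets, by its average across the 6 arrays, stood for that gene. All 9 were found, on 10 probe sets of 41345, because Slc32a1 had a further one. The tissue was ventral midbrain of male mice 2 months of age, hybridised to Affymetrix arrays that carried either the label wild type (n = 3) or the label Bach1 knockout (n = 3). BACH1 is a heme-binding transcriptional repressor. How the knockout allele was built, and in which strain, is not stated in the labels. They name no treatment and do not say whether each replicate was its own animal. The p-values therefore cover only the spread between these arrays, which may be technical.

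A neuron releases a transmitter only if it can make or take it up and load it into vesicles, and the genes followed here encode those steps. GABA is made from glutamate by glutamate decarboxylase, glutamate itself is loaded by 1 of a small family of vesicular transporters, glycine is concentrated in glycinergic endings by the plasma membrane transporter SLC6A5, and acetylcholine is made by choline acetyltransferase. Ventral midbrain is best known for its dopamine neurons, but it also holds GABA neurons of the substantia nigra pars reticulata and ventral tegmental area, glutamate neurons of the red nucleus and ventral tegmental area, and cholinergic motor neurons of the oculomotor nucleus.

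Because the arrays compare a Bach1 label with wild type, the 250 bases upstream of the RefSeq start sites (build GRCm38.p6) were searched on both strands. The letters sought were of the kinds bound by BACH1, NRF2 and MAF proteins. The 9 genes had 12 such windows, 3 of the genes having 2 start sites. The MAF-type letters TGCTGAG were in the windows of Gad1 and Gad2 and in 6.21% of 32851 mouse windows of the same length. The core TGAGTCA, which can overlap the first motif by its letters TGAG, was in 1 window of Slc6a5 and in 4.46% of all windows. The antioxidant response core TGACNNNGC was in windows of Gad2 and Slc17a8 and in 10.2% of all windows. These matches describe letters only. The stretches that hold them are shown 5′ to 3′ on the strand of the gene, with the match in capitals. Read in that direction, the matches begin 218, 179, 114, 117 and 191 bases before the start site, in the order shown. The Gad1, Gad2 and Slc6a5 stretches lie inside the annotated span of their own gene, upstream of the start site used.
Gad1, chr2:70561900-70561929, plus strand: aaaacagagcgTGCTGAGtgcattctggat
Gad2, chr2:22622137-22622166, plus strand: ctaggccagcgTGCTGAGggctgtggtagc
Gad2, chr2:22622203-22622232, plus strand, match on the other strand: agcgcctgtgGCTGGGTCAgcactacgcag
Slc17a8, chr10:89621347-89621376, minus strand: tgggagaagcTGACAGCGCcacctgcaagc
Slc6a5, chr7:49910097-49910126, plus strand: tcagacccacaTGAGTCAcgccaaacacgc

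The window of Slc17a7, the gene whose level varied most between arrays, held none of these motifs, and a window of Slc17a6 is shown beside it. Their GC contents were 61.2% and 53.2%, against a median of 52.4% over all windows.
Slc17a7, chr7:45163671-45163920, plus strand: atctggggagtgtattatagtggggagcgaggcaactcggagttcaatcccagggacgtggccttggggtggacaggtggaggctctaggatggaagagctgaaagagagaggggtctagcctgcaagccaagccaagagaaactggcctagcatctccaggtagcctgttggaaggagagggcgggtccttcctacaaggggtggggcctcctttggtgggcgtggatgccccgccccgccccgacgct
Slc17a6, chr7:51621580-51621829, plus strand: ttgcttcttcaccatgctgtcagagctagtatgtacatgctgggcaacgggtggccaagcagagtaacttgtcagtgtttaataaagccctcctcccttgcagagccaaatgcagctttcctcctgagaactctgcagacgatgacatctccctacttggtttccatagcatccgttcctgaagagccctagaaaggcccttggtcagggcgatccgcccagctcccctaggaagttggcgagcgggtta

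Values are log2 levels from RMA, in which 1 unit is a doubling, and array medians lay between 5.58 and 5.69. The Bach1 probe set was at 7.66 ± 0.058 on knockout-labelled arrays against 7.54 ± 0.068 on wild-type ones (SD, n = 3 each; limma, adjusted p = 0.74). The signal of the targeted gene was thus no lower under the knockout label, which directions here follow, and a probe set that reads outside the deletion would not test it. Hmox1, a gene that BACH1 represses, was at 8.38 ± 0.15 against 6.43 ± 0.098 and passed (limma, adjusted p = 0.0181). That call was lost without any single array, with adjusted p of 0.134 to 0.233, and with the replicate number as a block (limma, adjusted p = 0.544). All 12 dopamine neuron markers were brighter on average than the 40th percentile of all probe sets, a level of 5.07, and Slc6a3, Aldh1a1 and Th were the brightest of them. On average over the replicates 10 of the 12 were higher under the knockout label, beside 10407 of all 22180 genes, and 0 passed (limma, median log2 fold change 0.16). At an unadjusted p under 0.05 there was 1, beside 8.27% of all probe sets, and 2 did not overlap, beside 14.3%. Their mean level on knockout-labelled replicate 2, 8.94, was below that on wild-type replicates 1 and 2, 9.02 on each.

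None of the 9 transmitter genes passed the test between the labels. With limma over all 41345 probe sets, 0 of 9 had an adjusted p under 0.05, against 0.00726% of all probe sets (3, all higher), and the smallest adjusted p among the 9 was 0.652. At an unadjusted p under 0.05 there were also 0 of 9, against 8.27% of all probe sets. For each of the 9, the knockout-labelled and wild-type values overlapped, whereas 14.3% of all probe sets did not overlap. The fitted log2 fold changes, knockout-labelled minus wild type, ran from -0.29 to 0.21 with a median of 0.027, against a median of 0.0005 over all probe sets. They were above 0 for 7 genes and below 0 for 2, but Gad2, Slc17a6 and Slc17a7 fell below 0 when arrays were centred on a common median and Slc32a1 went above 0 after renewed quantile normalization. In bulk tissue, fewer cells of a type and less RNA per cell cannot be told apart.

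**Figure D1:**
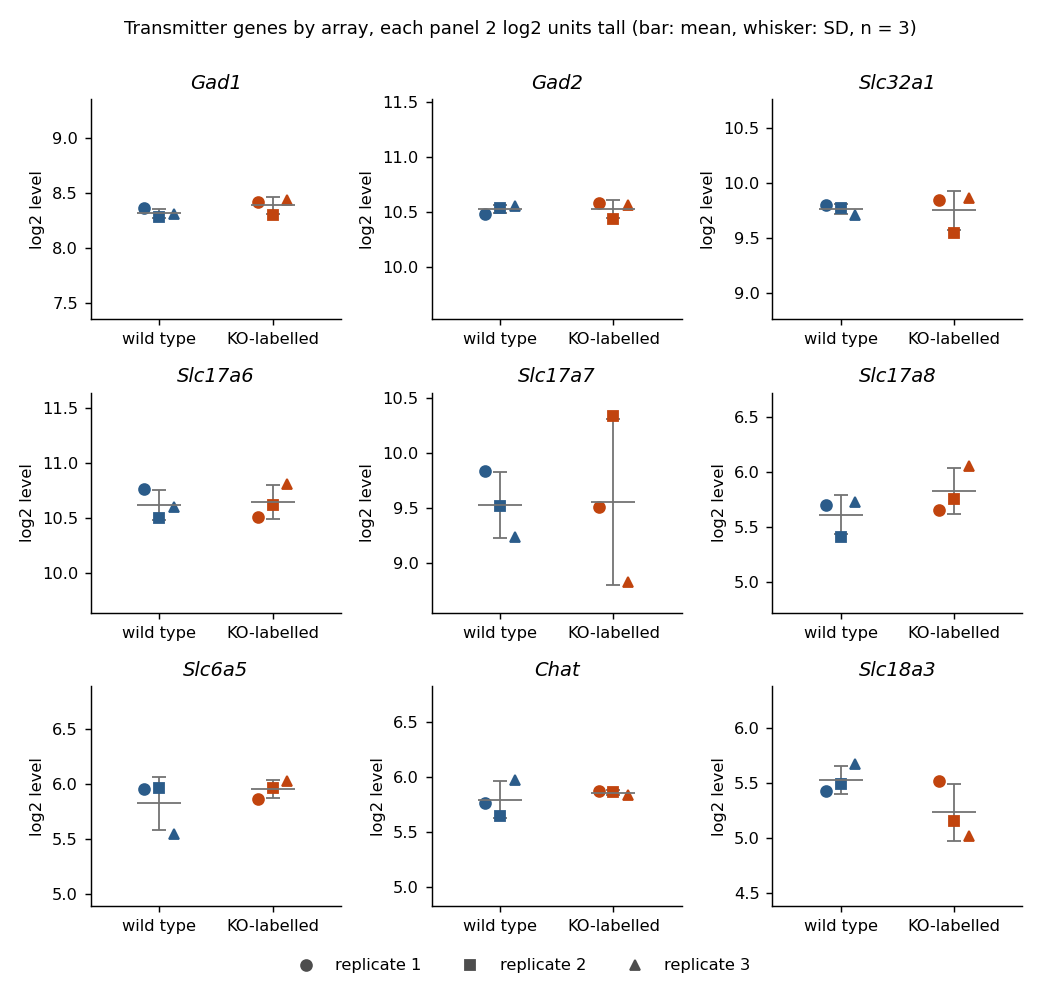
The log2 level (vertical axes) of each transmitter gene on every array, wild type in blue and knockout-labelled (KO) in orange, with replicate numbers as symbols, the group mean as a bar and the SD as whiskers (n = 3). All panels span 2 log2 units, so the narrow values of Gad2 and the wide ones of Slc17a7, from 8.83 to 10.34, can be compared by eye.

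Of the 3 GABA genes, both decarboxylase genes were the most tightly held. Gad2, which encodes the isoform tied to synaptic vesicles, was at 10.58, 10.43 and 10.56 on knockout-labelled replicates 1 to 3 and at 10.48, 10.53 and 10.55 on the wild-type replicates. The whole range over the arrays was 0.154 log2 units, or 1.11-fold, and the lowest value was on knockout-labelled replicate 2. Its log2 fold change of 0.0033 had a 95% interval of -0.20 to 0.20 (limma, adjusted p = 0.994), which in linear terms runs from 0.873-fold to 1.15-fold. The sign of so small a value depended on the arrays used, with -0.0262 to 0.0508 when any single array was left out.

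Gad1 encodes the isoform that makes most of the GABA of the cell body. It was at 8.42, 8.30 and 8.44 on the knockout-labelled arrays and at 8.36, 8.28 and 8.31 on the wild-type arrays. Knockout-labelled replicates 1 and 3 were the highest of the 6, and replicate 2 lay among the wild-type values. The log2 fold change of 0.073 (SE 0.082) did not pass, with a 95% interval of -0.13 to 0.27 (limma, adjusted p = 0.838), and it lay between 0.0442 and 0.119 without any single array.

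Slc32a1 encodes the vesicular transporter that loads both GABA and glycine. Its brighter probe set (17378922) was at 9.85, 9.55 and 9.86 on the knockout-labelled arrays and at 9.80, 9.77 and 9.71 on the wild-type arrays. The lone low value was again knockout-labelled replicate 2, which widened the SD of that group to 0.17 against 0.045. The log2 fold change was -0.0057 (95% interval -0.27 to 0.26; limma, adjusted p = 0.992) and became 0.0949 without knockout-labelled replicate 2 and 0.0141 without wild-type replicate 1. The other probe set of the gene (17393851) was at 7.0, 6.64 and 6.69 against 7.02, 6.98 and 6.91, a log2 fold change of -0.19 that did not pass either (95% interval -0.48 to 0.087; limma, adjusted p = 0.694). Replicates 2 and 3 of the knockout-labelled group lay below all wild-type arrays there, so the pair of probe sets ranked knockout-labelled replicate 3 differently.

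The 3 vesicular glutamate transporters mark different neurons. Slc17a6 encodes VGLUT2, the form used by most subcortical glutamate neurons, including those of the red nucleus, ventral tegmental area and thalamus. It was at 10.51, 10.62 and 10.81 on the knockout-labelled arrays and at 10.77, 10.50 and 10.60 on the wild-type arrays. Knockout-labelled replicate 3 and wild-type replicate 1 were the highest, and the groups covered nearly the same range. The log2 fold change was 0.02 (95% interval -0.26 to 0.31; limma, adjusted p = 0.975), and it ranged from -0.0613 without knockout-labelled replicate 3 to 0.0938 without wild-type replicate 1, and was -0.0413 without wild-type replicate 2.

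Slc17a7 encodes VGLUT1, the form of cortical and hippocampal pyramidal neurons and of cerebellar granule cells, and it had the widest spread of the 9 genes. Its level was 9.51, 10.34 and 8.83 on the knockout-labelled arrays and 9.84, 9.52 and 9.24 on the wild-type arrays. The highest and the lowest of the 6 values were both on knockout-labelled arrays, replicates 2 and 3, and they were 2.85-fold apart. The SD was 0.76 in that group and 0.30 in the wild-type group. Because of this spread the log2 fold change of 0.027 had a 95% interval of -0.91 to 0.96 (limma, adjusted p = 0.99), so differences from 0.534-fold to 1.95-fold lie within it. It was -0.364 without knockout-labelled replicate 2, 0.392 without knockout-labelled replicate 3 and -0.121 without wild-type replicate 3.

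Slc17a8 encodes VGLUT3, which is found in some serotonin, cholinergic and GABA neurons rather than in classical glutamate neurons. It was at 5.66, 5.76 and 6.06 on the knockout-labelled arrays and at 5.70, 5.41 and 5.73 on the wild-type arrays. Knockout-labelled replicate 3 was the highest and wild-type replicate 2 the lowest, while the other values lay close together. Of the 9 genes it had the highest log2 fold change, 0.21, which did not pass (SE 0.14, 95% interval -0.13 to 0.56; limma, adjusted p = 0.722) and lay between 0.0996 and 0.296 without any single array.

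Slc6a5 encodes the transporter of glycinergic neurons, which are mainly cells of hindbrain and spinal cord. It was at 5.87, 5.97 and 6.03 on the knockout-labelled arrays and at 5.96, 5.97 and 5.55 on the wild-type arrays. Only wild-type replicate 3 stood below the rest, and without it the log2 fold change of 0.13 became -0.0112. With all arrays the 95% interval was -0.21 to 0.46 (limma, adjusted p = 0.827). Hindbrain and serotonin neuron markers were dim here, with 7 of the 10 measured below the 40th percentile, Tph2 and Slc6a4 among them. Of the 10 markers 8 were higher on average under the knockout label, and 0 passed (limma, median log2 fold change 0.21). At an unadjusted p under 0.05 there were 4, all higher, beside 8.27% of all probe sets. Of these, Tph2, Slc6a4 and Hoxa3 were below the 40th percentile, and Hoxd3 had a mean level of 5.3. The groups did not overlap for the same 4 markers, beside 14.3% of all probe sets. The mean level of the 10 markers was 4.88 to 4.92 under the knockout label and 4.66 to 4.75 under the wild-type label. Their part in the Slc6a5 values was not tested.

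The pair of cholinergic genes is nested, because Slc18a3 lies within the annotated span of Chat, with its start 1059 bases downstream of the Chat start used here. Chat, the acetylcholine-making enzyme, was at 5.87, 5.86 and 5.83 on the knockout-labelled arrays and at 5.76, 5.64 and 5.97 on the wild-type arrays. The knockout-labelled values were almost equal and lay inside the wild-type range. The log2 fold change was 0.067 (95% interval -0.19 to 0.32; limma, adjusted p = 0.891) and -0.00959 without wild-type replicate 2.

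Slc18a3, which encodes the vesicular acetylcholine transporter, had the lowest fold change of the 9. Its level was 5.52, 5.16 and 5.02 on the knockout-labelled arrays and 5.43, 5.49 and 5.67 on the wild-type arrays. Knockout-labelled replicates 2 and 3 were below all wild-type arrays, but replicate 1 was above wild-type replicates 1 and 2. The log2 fold change of -0.29 (SE 0.15) did not pass, with a 95% interval of -0.66 to 0.071 (unadjusted p = 0.0972 and adjusted p = 0.652, limma). It ranged from -0.436 to -0.187 without any single array. The level of Chat minus that of Slc18a3 was 0.35, 0.71 and 0.81 on the knockout-labelled arrays and 0.33, 0.15 and 0.31 on the wild-type arrays. This difference was singled out after the values were seen and was not tested; both genes had means near the middle of all probe sets, at percentiles 53.5 and 46.0.

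**Figure D2:**
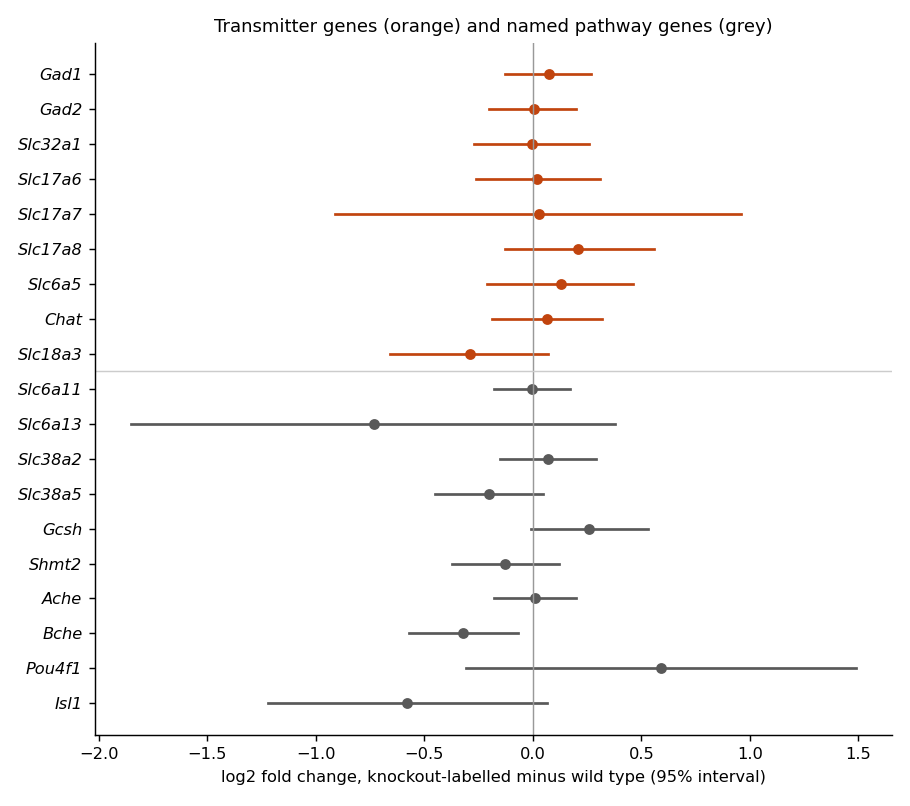
Log2 fold change, knockout-labelled minus wild type (horizontal axis), as a point with its 95% interval from limma, for the 9 transmitter genes in orange and 10 named pathway genes in grey. The intervals of all 9 transmitter genes include 0, and Slc17a7 has the widest of them, from -0.91 to 0.96.

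The strength of a probe set depends on its sequence as well as on its transcript, so no order between genes is drawn from these levels. As a description, the probe sets of Slc17a6, Gad2, Slc32a1 and Slc17a7 lay at percentiles 96.7, 96.3, 93.0 and 91.9 of all probe sets by mean level, and that of Gad1 at percentile 82.5. Slc6a5, Chat, Slc17a8 and Slc18a3 lay between percentiles 46.0 and 54.5. The probe sets of the GABA genes and of VGLUT1 and VGLUT2 were therefore among the brighter ones. Those of the glycine and acetylcholine genes and of VGLUT3 were near the median signal, at mean levels of 5.38 to 5.89. Some olfactory receptor genes had like levels, Olfr417 at 5.863 and Olfr820 at 5.508, while many others were dimmer, Olfr16 at 1.864 among them. Whether Slc6a5, Chat, Slc17a8 and Slc18a3 read above background was not tested, and a level above 5.07 does not show it. Their fold changes and spreads carry the same limit.

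How steady a gene was over all 6 arrays was set against genes of like brightness, within 0.5 log2 units of its mean. The SD of Gad2, 0.057, was larger than that of 27.9% of 987 such genes, and the SD of Gad1, 0.07, larger than that of 23.7% of 3100. Chat was also on the steady side, with an SD of 0.11 above 21.6% of its 3205 genes. The signal of Chat was not tested against background. Slc17a6 was on the variable side (0.13, above 85.2% of 889), and Slc17a7 was near the extreme, its SD of 0.52 exceeding that of 99.6% of 1842 genes. Slc32a1, Slc18a3, Slc17a8 and Slc6a5 lay between, above 72.9%, 76.2%, 67.1% and 56.7% of their genes. These shares describe the arrays and include any difference between the labels.

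**Figure D3:**
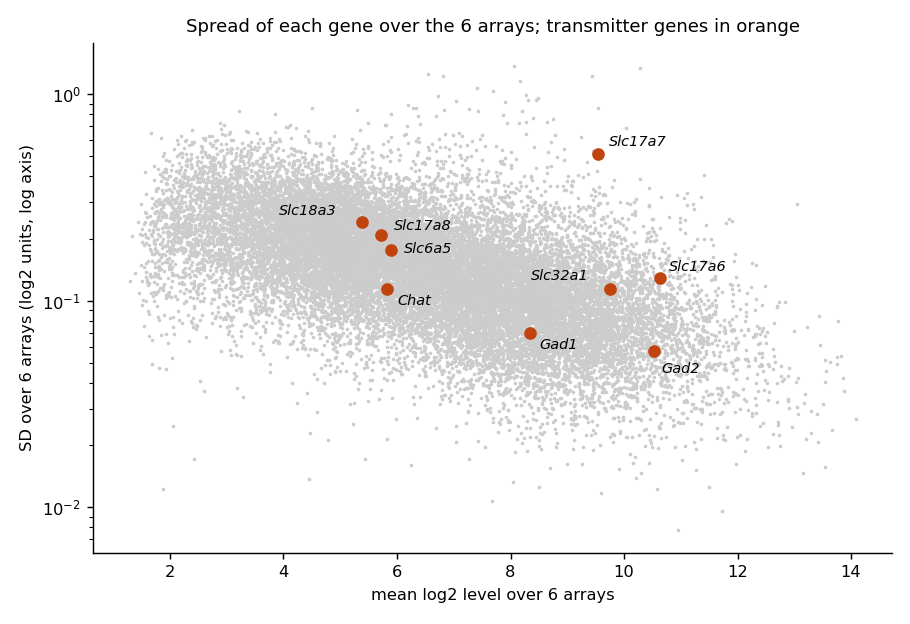
SD over the 6 arrays in log2 units (vertical, log axis) against the mean log2 level (horizontal) for all 22180 genes in grey and the 9 transmitter genes in orange. Slc17a7, with an SD of 0.52, lies at the upper edge of genes of its brightness, and Gad1 and Gad2 lie in the lower part of the cloud.

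Slc17a7 was set beside markers of neighbouring regions that a dissection could hold. Cortex and hippocampus markers (10 genes measured, 1 of them, Tbr1, below the 40th percentile, and led in brightness by Camk2a, Nrgn and Rasgrf2) had mean levels of 7.26 to 8.06 under the knockout label and 7.18 to 7.84 under the wild-type label. As deviations from the mean of all arrays they were -0.31, 0.50 and -0.15 on knockout-labelled replicates 1 to 3 and -0.39, 0.28 and 0.08 on wild-type replicates 1 to 3. Slc17a7 deviated by -0.038, 0.80 and -0.72 and by 0.29, -0.025 and -0.31. The array with the highest Slc17a7 was thus also the one with the highest cortex and hippocampus level, knockout-labelled replicate 2.

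Thalamus markers (8 genes, all above the 40th percentile, led by Prkcd, Tcf7l2 and Plekhg1) deviated by 0.11, 0.13 and -0.19 on the knockout-labelled and by 0.48, -0.28 and -0.26 on the wild-type arrays. Their highest array was wild-type replicate 1, which had the second highest Slc17a7 and Slc17a6 levels but the lowest cortex and hippocampus level. On knockout-labelled replicate 3, where Slc17a7 was lowest, both lists were below their mean. The part of either region in the Slc17a7 values was not tested. Slc17a6 did not share the high value of knockout-labelled replicate 2, where it deviated by -0.019.

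**Figure D4:**
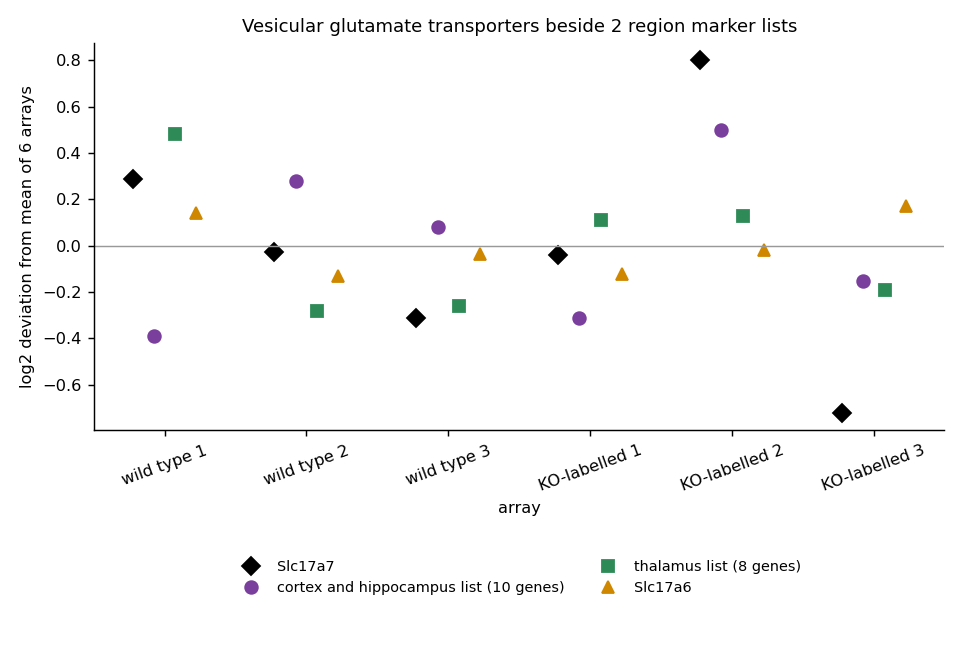
Deviation from the mean of the 6 arrays in log2 units (vertical axis) on each array (horizontal axis) for Slc17a7, Slc17a6 and the mean of the cortex and hippocampus and the thalamus marker lists. On knockout-labelled (KO) replicate 2 Slc17a7 is 0.80 and the cortex and hippocampus list 0.50 above the mean, and on wild-type replicate 1 the thalamus list is 0.48 above it.

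Other regions with many GABA or cholinergic neurons also varied between arrays. Striatum markers (7 measured, all above the 40th percentile) deviated from -0.20 on knockout-labelled replicate 2 to 0.19 on wild-type replicate 3, and hypothalamus markers (9 measured) from -1.0 on knockout-labelled replicate 3 to 1.1 on wild-type replicate 3. Of the 9 hypothalamus markers 8 were lower on average under the knockout label, beside 11773 of all 22180 genes. At an unadjusted p under 0.05 there were 2, both lower, beside 8.27% of all probe sets, and 0 passed (limma, median log2 fold change -1.0). By the list mean, wild-type replicate 1, at -0.18, lay among the knockout-labelled arrays, with -0.022 and -0.24 on their replicates 1 and 2. The lowest and the highest array of this list were also those of Slc18a3 and Isl1. Motor neuron markers (7 measured, with Mnx1 and Tbx20 below the 40th percentile) had mean levels of 5.31 to 5.42 under the knockout label and 5.22 to 5.77 under the wild-type label. Their highest array, wild-type replicate 3, was also the highest for Chat and Slc18a3. Their lowest array was wild-type replicate 1, whereas Chat was lowest on wild-type replicate 2 and Slc18a3 on knockout-labelled replicate 3. The motor neuron list shares genes with the identity factor and acetylcholine lists, Isl1 among them. Cerebellum markers (9 measured, with Gabra6 and Neurod1 below the 40th percentile) were led in brightness by Calb1, Zic1 and Cbln1. Their mean level was 7.12 to 7.15 under the knockout label and 7.26 to 7.30 under the wild-type label. Of these 9 markers 7 were lower on average under the knockout label and 2, Cbln3 and Neurod1, higher, and 0 passed (limma). At an unadjusted p under 0.05 there were 2, 1 higher and 1 lower, beside 8.27% of all probe sets. The groups did not overlap for 2, 1 higher and 1 lower, beside 14.3% of all probe sets. Glial lists deviated by -0.054 to 0.066 for astrocytes, -0.17 to 0.11 for oligodendrocytes and -0.098 to 0.068 for microglia. The part of these lists in the transmitter values was not tested.

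The extremes of several genes fell on the same arrays. Knockout-labelled replicate 3 had the highest value of 5 of the 9 genes (Gad1, Slc32a1, Slc17a6, Slc17a8 and Slc6a5) and the lowest of Slc17a7 and Slc18a3. Some were near ties, with knockout-labelled replicate 1 at 8.42 against 8.44 for Gad1 and at 9.85 against 9.86 for Slc32a1. Of 17 transcription factors that set or mark transmitter identity, 6 were highest on knockout-labelled replicate 3 and 2, Isl1 and Lhx8, lowest. The 6 were Gata3, at 7.71, Gata2, at 8.13, Tal1, at 7.06, Pou4f1, at 6.93, Pax2, at 5.2, and Barhl1, at 5.93. Here too were near ties, with Pax2 also at 5.2 on knockout-labelled replicate 1 and Barhl1 at 5.92 on wild-type replicate 3. Other factors of the list had their highest value elsewhere, Sox14 on knockout-labelled replicate 1, Nkx2-2 on wild-type replicate 1 and Lhx1 on wild-type replicate 2. This array was also the highest for 10 of the 12 dopamine neuron markers, whose mean deviated by 0.22 there and by -0.18 on wild-type replicate 3, the lowest. The part of dopamine neuron markers in the transmitter values was not tested. The genes named from these factors were singled out after the values were seen. Wild-type replicate 2 had the lowest value of 4 of the 9, namely Gad1, Slc17a6, Slc17a8 and Chat. The share of all genes with their highest or lowest value on each array was not counted. The counts here are therefore not read as a trait of the listed genes.

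Other genes of the same transmitter pathways were followed in 5 lists of 51 genes, of which 43 were measured and 8 were not analysed here. With limma over all probe sets, 0 of the 43 passed, 2 had an unadjusted p under 0.05, and 6 had groups that did not overlap, 3 higher and 3 lower, beside the shares of 8.27% and 14.3% over all probe sets. The median log2 fold change was -0.0013, with 21 genes above 0 and 22 below, against -0.0098 over all genes.

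Of 4 GABA uptake and breakdown genes 0 were above 0 and 0 passed (median -0.048; -0.081 to -0.028 without any single array). Slc6a11, the astrocytic GABA transporter, was at 12.72, 12.69 and 12.75 against 12.70, 12.71 and 12.75, a log2 fold change of -0.0019 that rose to 0.00812 after renewed quantile normalization. Slc6a13, a GABA and taurine transporter best known from the meninges, was at 8.33, 7.44 and 7.96 against 7.64, 9.12 and 9.17. Its log2 fold change of -0.73 had a 95% interval of -1.85 to 0.38 (limma, adjusted p = 0.706), and wild-type replicate 1 lay among the knockout-labelled values, far below the other two wild-type arrays. The log2 fold change was -1.24 without that array and -0.47 without wild-type replicate 3.

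Of 12 glutamate supply and uptake genes, which include the astrocytic uptake transporters and glutamine synthetase, 5 were above 0, 7 below and 0 passed (median -0.0069; -0.016 to -0.0048 without any single array). Their log2 fold changes reached from -0.20 for Slc38a5, a glutamine transporter (95% interval -0.45 to 0.049; limma, adjusted p = 0.652), to 0.069 for Slc38a2, another glutamine transporter (95% interval -0.15 to 0.29; limma, adjusted p = 0.866). Without any single array they lay between -0.258 and -0.131 for Slc38a5 and between 0.0128, without knockout-labelled replicate 1, and 0.128, without knockout-labelled replicate 2, for Slc38a2. Of 5 genes of glycine breakdown and interconversion, 3 were above 0, 2 below and 0 passed (median 0.046; -0.024 without knockout-labelled replicate 2, -0.0019 without wild-type replicate 3 and 0.082 without wild-type replicate 1). Gcsh, the hydrogen carrier of the glycine cleavage system, was at 7.32, 7.06 and 7.13 against 6.92, 6.77 and 7.04. Its groups did not overlap, with 7.06 as the lowest knockout-labelled and 7.04 as the highest wild-type value, and the log2 fold change of 0.26 did not pass (95% interval -0.0092 to 0.53; limma, adjusted p = 0.613). Shmt2, the mitochondrial serine hydroxymethyltransferase, had a log2 fold change of -0.13 (limma, adjusted p = 0.76), which became -0.0511 without wild-type replicate 2.

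Of 5 genes of choline uptake and acetylcholine breakdown, 2 were above 0, 3 below and 0 passed (median -0.047). The median was 0.065 without knockout-labelled replicate 2 and -0.16 without knockout-labelled replicate 3. Ache, the esterase that ends cholinergic transmission, was at 9.13 ± 0.075 against 9.12 ± 0.0072 (SD, n = 3 each). Bche, a related esterase found largely outside neurons, was at 6.61, 6.31 and 6.54 against 6.81, 6.80 and 6.80. All 3 knockout-labelled values were lower, with a log2 fold change of -0.32 (95% interval -0.57 to -0.068; unadjusted p = 0.0206, adjusted p = 0.552, limma), which did not pass.

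Of the 17 identity transcription factors, 11 were above 0, 6 below and 0 passed, with a median of 0.18 and 4 of the 17 below the 40th percentile. The median was 0.11 without knockout-labelled replicate 1 or replicate 2, and 0.17 at most without any single array. Pou4f1 was at 5.99, 5.49 and 6.93 against 5.89, 5.42 and 5.33, and its log2 fold change of 0.59 (95% interval -0.31 to 1.49; limma, adjusted p = 0.707) became 0.195 without knockout-labelled replicate 3 and 0.913 without knockout-labelled replicate 2. Isl1, a factor of cholinergic and other neurons, was at 7.06, 6.91 and 6.15 against 7.07, 7.21 and 7.56. Its groups did not overlap, with 7.06 and 7.07 as the nearest values, and the log2 fold change of -0.58 did not pass (95% interval -1.22 to 0.066; limma, adjusted p = 0.625), lying between -0.754 and -0.297 without any single array.

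Genes with the most similar pattern were sought for the 3 members with the widest spread, among 15789 genes above the 40th percentile, by the root mean square difference between mean-centred log2 levels over the 6 arrays. For Slc17a7 they were 5430421F17Rik (0.16), Gm15413 (0.18) and Npy (0.21), the gene of neuropeptide Y. Npy was at 8.74, 9.17 and 8.08 on the knockout-labelled and at 8.72, 8.85 and 8.57 on the wild-type arrays, with its highest and lowest values on the same arrays as Slc17a7. For Slc18a3 they were Mirlet7e (0.079), Zfp78 (0.08) and Rpl37 (0.082), and for Slc17a8 they were Ttf2 (0.049), Gm19589 (0.053) and Emx2os (0.055). With 6 arrays and so many genes, close patterns arise easily, and these are given as a description.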

How the data were processed

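RNA of ventral midbrain was hybridised to Affymetrix arrays after biotin labelling, as the labels' protocols describe. Log2 expression levels, 1 value per probe set and array, were deposited by the authors after RMA, per the submitters' processing notes; software version and annotation are not given in the sources used here. RMA makes array distributions nearly alike, which hides a shift shared by most genes and shrinks differences of dim probe sets. There were 0 other columns of sample values, and precision is limited by the number of arrays.

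Gene names came from the platform annotation (1 gene for 23521 probe sets, several for 1814, none for 16010) and Entrez identifiers linked 23328 of them to current symbols in a RefSeq table (GRCm38.p6). Promoter sequences are from RefSeq. All probe sets were tested with limma 3.58.1 in R 4.3.3 (lmFit, eBayes, no covariates, prior of 2.21 degrees of freedom), with Benjamini-Hochberg adjustment, a threshold of 0.05 and 95% intervals, after the code was tested on simulated data. Alternatives were renewed quantile normalization, median centring, no dim probe sets, trend and robust variances, the replicate number as a block, averaged probe sets, and each array left out.

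The named genes were all 9 members, the highest and lowest log2 fold change of each of 5 pathway lists above the 40th percentile and any called, up to 3 bright genes of each of 11 marker lists with those below that percentile, the 3 nearest patterns of 3 members, Bach1 and Hmox1. Members and lists were chosen with earlier results of these data known.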

Additional observations from a re-analysis of the deposited data

How the results depend on the processing

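Across 108 refits of the 9 transmitter genes (12 alternatives each), limma called 0, and the smallest adjusted p was 0.594. Only 1 gene, Slc18a3, had an unadjusted p under 0.05, when knockout-labelled replicate 1 was left out. In that fit 3224 of all 41345 probe sets were under 0.05. The sign changed in 15 of the 108 refits. With arrays centred on a common median, which lowers the median of all probe sets to -0.047, the log2 fold change was -0.0438 for Gad2, -0.0266 for Slc17a6, -0.0199 for Slc17a7 and -0.0376 for Ache. The list medians were then -0.095 for GABA uptake and breakdown, -0.054 for glutamate supply and uptake and -0.0012 for glycine. After renewed quantile normalization Slc32a1 was at 0.0179 and Slc6a11 at 0.00812. Without any single array the values ran from -0.0262 to 0.0508 for Gad2, -0.058 to 0.0949 for Slc32a1, -0.0613 to 0.0938 for Slc17a6, -0.364 to 0.392 for Slc17a7, -0.0112 to 0.203 for Slc6a5, -0.00959 to 0.159 for Chat, -0.0247 to 0.0498 for Ache, -0.0178 to 0.0149 for Slc6a11, -0.024 to 0.082 for the glycine median and -0.16 to 0.065 for the acetylcholine median. The number of probe sets called, 3 with all arrays, was 0 without any single array, with 2469 to 4007 at an unadjusted p under 0.05, and 0 with the replicate number as a block, with 3352. In each of these 7 fits fewer residual degrees of freedom remained, and Hmox1 did not pass, at log2 fold changes of 1.88 to 2.03 and adjusted p of 0.134 to 0.233 without 1 array and 0.544 with the block. Deviations from the group means of arrays with the same number correlated at 0.104, -0.0414 and 0.0588 across probe sets. Between arrays of different numbers the correlations ran from -0.105 to 0.0536. Knockout-labelled replicates 1 and 3 correlated best with the wild-type array of their own number, and replicate 2 did not. With 3 arrays per group these correlations cannot decide whether the replicate numbers paired the arrays.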
